A study of Mus musculus with 15 samples.

Results

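AMPA receptors are tetramers of the subunits GluA1 to GluA4, encoded by Gria1, Gria2, Gria3 and Gria4. All rows of the cortical transcript table that the mouse gene annotation GENCODE M21 assigns to these genes were taken, which gave 10 of 10370 transcripts and 4 of 7740 genes. The annotation holds 26 transcripts of these genes, and the other annotated transcripts of these genes were not analysed here. The table came from cortex of male C57BL/6 mice (substrain C57Bl/6J per the study's methods) labelled as 12 weeks of age, collected 1 month after a course of high-frequency head impacts (HF-HI, 8 libraries) or the Sham procedure (7 libraries). In HF-HI, mice under isoflurane received repeated closed-head impacts on consecutive days, and the Sham procedure was isoflurane anesthesia and handling alone. The comparison asks how subunit expression in cortex differs in the chronic phase after HF-HI. The RNA came from whole cortical tissue, so fewer cells of a type and less RNA per cell cannot be told apart. The labels do not state that each library is a separate animal, and p-values set group differences against the spread between these libraries.

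AMPA receptors carry most fast excitatory current in cortex, and the number and make-up of these receptors at the synapse shift with plasticity. Receptors that contain edited GluA2 pass little calcium, whereas receptors without GluA2 are calcium-permeable. GluA1 is the subunit best known for delivery to synapses during long-term potentiation. Each Gria gene also carries a pair of mutually exclusive exons, called flip and flop, which encode a short stretch of the ligand-binding region ahead of the last membrane segment. For several subunits, though not as a rule for each, flop forms desensitize faster than flip forms. Receptor kinetics were not measured here.

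Sham libraries held 5798810 to 10582858 recovered reads in listed transcripts, and HF-HI libraries held 3496103 to 8666307. HF-HI libraries were therefore shallower, with a difference in mean log2 size factor of −0.55 (exact two-sided permutation p = 0.0280). HF-HI replicate 2 stood apart on the leading principal component of all transcripts, at 12.6 against −3.35 to 0.721 for the other 14. Values below are normalised counts, which are reads divided by the size factor of the library, unless stated otherwise. The most reads behind a Gria value were 7667 and the fewest were 62.

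The flip and flop exons carry part of the difference between the listed transcripts of Gria1, Gria2 and Gria4, and are therefore shown. In all 4 genes both exons have 115 bases, and the flop exon lies ahead of the flip exon in the direction of transcription. They were found in the annotation as adjacent, mutually exclusive exons of equal length. The form was assigned from the encoded residue known to differ between them, a serine in flip and an asparagine in flop. On GRCm38 the Gria1 pair lies on the plus strand of chromosome 11, flop at chr11:57309769-57309883 and flip at chr11:57310608-57310722. The Gria2 pair lies on the minus strand of chromosome 3, flop at chr3:80691320-80691434 and flip at chr3:80690404-80690518. The Gria4 pair lies on the minus strand of chromosome 9, flop at chr9:4432773-4432887 and flip at chr9:4427030-4427144. The sequences are from the GENCODE M21 transcripts, written 5′ to 3′ on the strand of the gene, with capitals where flip and flop of the same gene differ.
Gria1 flop exon: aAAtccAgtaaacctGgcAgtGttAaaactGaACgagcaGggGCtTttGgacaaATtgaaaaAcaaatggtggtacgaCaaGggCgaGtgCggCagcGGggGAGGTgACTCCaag
Gria1 flip exon: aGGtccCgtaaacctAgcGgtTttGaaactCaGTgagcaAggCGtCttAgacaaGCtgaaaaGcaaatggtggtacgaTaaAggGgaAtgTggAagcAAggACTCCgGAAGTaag
Gria2 flop exon: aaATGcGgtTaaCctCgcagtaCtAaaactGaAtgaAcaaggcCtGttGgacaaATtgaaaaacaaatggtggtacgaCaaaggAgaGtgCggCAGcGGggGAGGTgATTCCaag
Gria2 flip exon: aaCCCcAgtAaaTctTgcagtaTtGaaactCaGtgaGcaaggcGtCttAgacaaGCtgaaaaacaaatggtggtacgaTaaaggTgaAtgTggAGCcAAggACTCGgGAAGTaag
Gria4 flop exon: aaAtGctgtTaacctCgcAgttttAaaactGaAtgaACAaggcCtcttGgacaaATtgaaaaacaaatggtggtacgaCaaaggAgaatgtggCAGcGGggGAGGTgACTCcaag
Gria4 flip exon: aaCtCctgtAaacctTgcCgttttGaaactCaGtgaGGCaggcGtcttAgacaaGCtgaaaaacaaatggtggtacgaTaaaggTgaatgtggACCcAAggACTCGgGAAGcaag
Flip and flop differed at 36 positions in Gria1, 36 in Gria2, 32 in Gria3 and 31 in Gria4, so identity within a gene was 68.7% to 73.0%. The same form was more alike between genes, with 87.8% to 92.2% identity for flip and 87.8% to 94.8% for flop. These exons code for protein.

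The listed transcripts differ in how much sequence separates them. For Gria1, the table lists Gria1-201 (ENSMUST00000036315, flip) and Gria1-202 (ENSMUST00000094179, flop), which lie on chromosome 11 between 57011810 and 57330244. Gria1-201 has 262 bases that Gria1-202 lacks, of which the flip exon is 115, and Gria1-202 has 115 bases of its own, which is the flop exon. For Gria2, Gria2-201 (ENSMUST00000075316) is the flop form with a long 3′ untranslated end of 7271 bases, and Gria2-202 (ENSMUST00000107745) is the flip form with an end of 926 bases. Gria2-201 spans chromosome 3 from 80681450 to 80802835, and Gria2-202 starts at 80687795. The balance of these transcripts therefore mixes the exon choice with the 3′ end. For Gria3 on chromosome X, Gria3-201 (ENSMUST00000076349) is a flip form, Gria3-206 (ENSMUST00000139965) holds both exons and is annotated for nonsense-mediated decay, and Gria3-208 (ENSMUST00000156721) lacks flip and holds the flop sequence inside a longer exon made by a retained intron. No listed Gria3 transcript is a protein-coding flop form, so Gria3 has no flip to flop ratio here. Gria3-206 has 0 bases outside the other listed transcripts of Gria3, whereas Gria3-201 has 97 and Gria3-208 has 556. For Gria4 on chromosome 9, Gria4-201 (ENSMUST00000027020) is flop, Gria4-202 (ENSMUST00000063508) is flip, and Gria4-203 (ENSMUST00000163309) is a protein-coding transcript of 2338 bases that ends in an exon of its own and holds neither. The flop and flip forms of Gria4 have 115 and 118 bases of their own, and Gria4-203 has 590. Small annotated genes on the same strand overlap exons of the Gria2 and Gria3 transcripts and of Gria4-201 and Gria4-202 (Gm25749, Gm22413 and Gm23811, respectively).

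Gria2 was the most abundant subunit in every library. Per kilobase of annotated transcript, the summed level of Gria2 in Sham was 1272 ± 59.0 normalised counts (SD, n = 7), ahead of Gria3 at 502 ± 10.7, Gria1 at 426 ± 34.0 and Gria4 at 355 ± 16.4. In HF-HI these levels were 1294 ± 74.2 for Gria2, 529 ± 28.8 for Gria3, 403 ± 48.8 for Gria1 and 355 ± 18.0 for Gria4 (SD, n = 8). The order Gria2, Gria3, Gria1, Gria4 held in 13 of 15 libraries. In HF-HI replicate 2, Gria1 lay above Gria3, and in HF-HI replicate 7, Gria4 lay above Gria1. Gria2 stood clear of the others, but the ranges of the neighbours Gria3 and Gria1 overlapped in Sham, where Gria3 was at 486 to 517 and Gria1 at 391 to 496. Gria1 and Gria4 did not overlap in Sham, with Gria4 at 330 to 378, but did in HF-HI, where Gria1 was at 363 to 516 and Gria4 at 325 to 386. The levels rest on the listed transcripts and their annotated lengths, and 51.8% of the Gria4 level in Sham came from the short Gria4-203. For Gria3 in Sham, 20.6% of the level came from the decay form Gria3-206 and 25.5% from the retained-intron form Gria3-208. The coding form Gria3-201 alone was at 270 ± 30.1 per kilobase in Sham, below the sums of Gria1 and Gria4, so the place of Gria3 in the order rests on the other 2 forms. The Gria4 sum includes the short Gria4-203, whereas the flop and flip forms of Gria4 were at 126 ± 9.67 and 44.8 ± 9.72 in Sham. Gria3-201 lay above each of those, so the order of Gria3 and Gria4 depends on the forms that are counted.

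**Figure D1:**
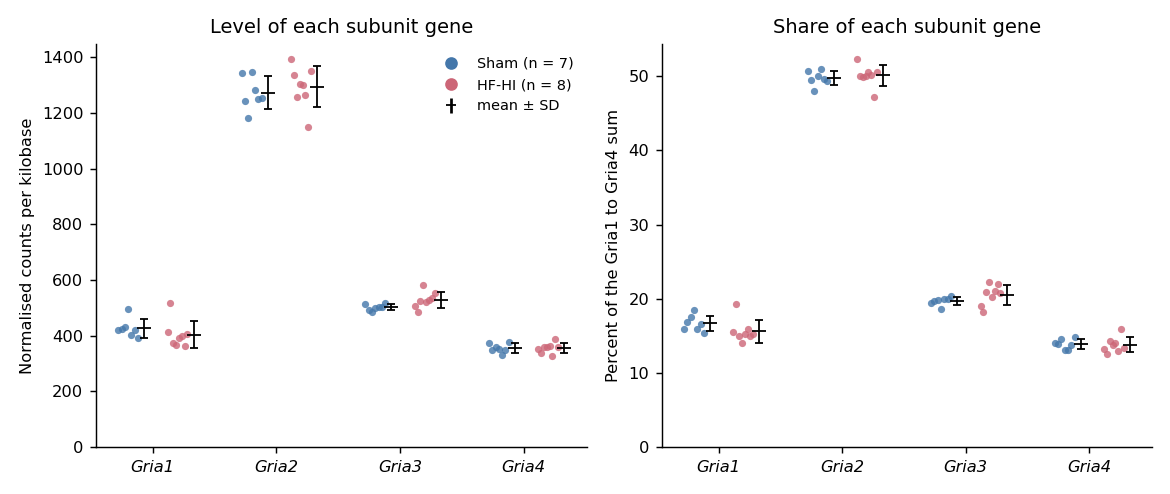
Level of each AMPA receptor subunit gene in normalised counts per kilobase (left) and as a percent of the Gria1 to Gria4 sum (right), with a point for each library, 7 Sham and 8 HF-HI, and the mean with SD in black. Gria2 made up 47.3% to 52.4% of the sum in HF-HI and 48.1% to 51.0% in Sham, and the groups overlapped for each gene.

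The share of each subunit in the summed level overlapped between the groups. Gria2 took 49.8% ± 0.96 of the summed per-kilobase level in Sham and 50.1% ± 1.40 in HF-HI. The share of Gria1 was 16.7% ± 1.06 in Sham and 15.6% ± 1.57 in HF-HI, and that of Gria3 was 19.7% ± 0.56 and 20.5% ± 1.38. Gria4 took 13.9% ± 0.69 and 13.8% ± 1.02. The sum over the 4 genes was 2555 ± 85.6 per kilobase in Sham and 2581 ± 88.6 in HF-HI. Set against the NMDA receptor subunits Grin1, Grin2a and Grin2b, the ratio of summed per-kilobase levels was 1.19 to 1.46 in Sham, with a median of 1.22 and a mean of 1.27 ± 0.098. In HF-HI it was 1.12 to 1.34, with a median of 1.23 and a mean of 1.22 ± 0.069. The groups overlapped, and this RNA ratio is not a measure of receptor current.

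Of the 10 Gria transcripts, only the flip form of Gria1 passed an unadjusted p under 0.05 in HF-HI against Sham, and it was lower. This is 1 of 10, beside 916 of all 10370 transcripts (8.83%, of which 3.90% were lower and 4.94% higher). None passed a Benjamini-Hochberg adjusted p under 0.1, and neither did any transcript of the table in limma (0 of 10370, smallest adjusted p 0.206). The paper did report altered genes at this time, from a negative binomial model in DESeq2 with the same adjusted threshold. It counts AMPA receptor subunit genes among those altered in both the acute and the chronic phase. That model was not fitted here. No Gria transcript had groups that did not overlap, against 0.154% of all transcripts. The median difference on the variance-stabilised (VSD, log2) scale of the deposited values was 0.00 over the Gria transcripts and 0.00 over all transcripts, and 5 of the 10 differences were positive. Differences on this scale understate log2 ratios at low counts, so the log2 ratio of group means is given beside them.

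**Figure D2:**
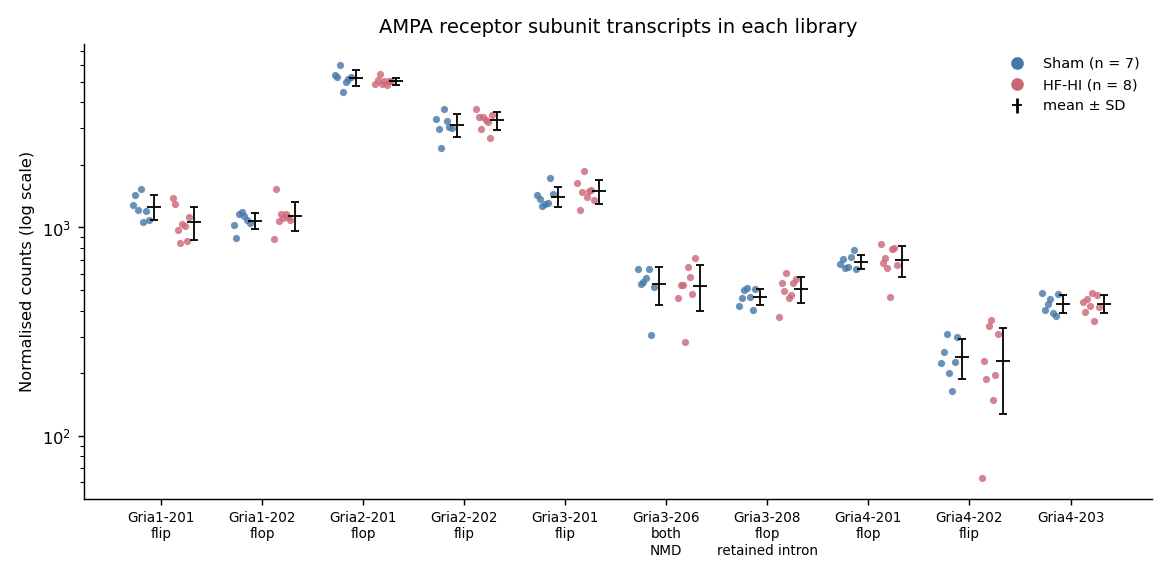
Normalised counts of the 10 AMPA receptor subunit transcripts on a log axis, with a point for each library, 7 Sham and 8 HF-HI, and the mean with SD in black; the form of the flip and flop region is under each name. The groups overlapped for each transcript, and 5 of 8 HF-HI libraries lay below every Sham library for Gria1-201.

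Gria1-201, the flip form of the GluA1 subunit, had 1057, 1207 and 1527 normalised counts as the lowest, median and highest Sham value, and 845, 1027 and 1378 in HF-HI. The 2 highest Sham libraries (replicates 2 and 4) lay above every HF-HI library, and 5 of 8 HF-HI libraries lay below every Sham library, while HF-HI replicates 1 and 2 lay above the Sham median. The means were 1255 ± 172 and 1066 ± 191 (SD), a log2 ratio of −0.24. The VSD difference was −0.12 (SE 0.054, 95% confidence interval −0.23 to −0.0034), with a limma unadjusted p of 0.0443 and an adjusted p of 0.555. The 2 HF-HI libraries with the fewest recovered reads, replicates 4 and 7, also had the lowest values, 845 and 862. HF-HI replicate 2, the next in depth, had the second highest HF-HI value at 1294, and Sham replicate 5, with 10068901 reads, had the lowest Sham value. With log2 size factor as a covariate the VSD difference was −0.078 (limma unadjusted p = 0.251). With a score of striatal marker genes as a covariate it was −0.11 (limma unadjusted p = 0.0703). Leaving out any of Sham replicates 1, 2, 3, 4 and 6 or HF-HI replicates 3, 4, 5, 6 and 7 ended the unadjusted call, with limma p-values from 0.0529 to 0.103. The call held in the other 5 fits that left out a library. Their limma unadjusted p-values ran from 0.0110 without HF-HI replicate 1 to 0.047 without HF-HI replicate 8, with 0.0205 without HF-HI replicate 2.

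Gria1-202, the flop form, had 895, 1087 and 1192 normalised counts as the lowest, median and highest Sham value, and 882, 1116 and 1525 in HF-HI. HF-HI replicate 2 held the highest value and stood apart from the next library at 1159. The means were 1078 ± 99.9 and 1140 ± 179, a log2 ratio of 0.08, and the limma unadjusted p was 0.424. Summed over both transcripts, Gria1 had 2333 ± 187 normalised counts in Sham and 2206 ± 267 in HF-HI, with 7 of 8 HF-HI libraries below the Sham median of 2308. The log2 difference was −0.09 (SE 0.066, 95% confidence interval −0.22 to 0.053, limma unadjusted p = 0.210). HF-HI replicate 2 was the highest of all libraries at 2819, and without it the difference was −0.14 (limma unadjusted p = 0.00998).

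Gria2, whose product sets the calcium permeability of the receptor, was the steadiest gene of the family in summed counts, with a coefficient of variation of 2.32% in Sham and 3.62% in HF-HI. Per kilobase it was not, at 4.635% in Sham and 5.73% in HF-HI. There Gria3 was at 2.14% and 5.45%, and Gria4 at 4.607% and 5.07%. The summed count of Gria2 was 8165, 8220 and 8701 as the lowest, median and highest Sham value and 7709, 8344 and 8608 in HF-HI. The means were 8316 ± 193 and 8287 ± 300, and the log2 difference was −0.01 (95% confidence interval −0.063 to 0.052, limma unadjusted p = 0.840). The flop form with the long 3′ end, Gria2-201, had 4482, 5251 and 6033 in Sham and 4803, 5039 and 5417 in HF-HI, and its log2 ratio was −0.06 (limma unadjusted p = 0.296). Both the lowest and the highest value were Sham libraries, replicates 4 and 3, and without Sham replicate 4 the unadjusted p was 0.0452 with a VSD difference of −0.07. The flip form with the short end, Gria2-202, had 2415, 3025 and 3683 in Sham and 2672, 3324 and 3712 in HF-HI, a log2 ratio of 0.08 (limma unadjusted p = 0.342).

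Gria3 was the only gene of the 4 at an unadjusted p under 0.05 when its listed transcripts were summed, and it was higher in HF-HI, beside 9.94% of all 7740 genes in either direction, 5.40% higher and 4.53% lower. Sham libraries had 2310, 2405 and 2486 normalised counts as the lowest, median and highest, and HF-HI libraries had 2289, 2522 and 2754. In 6 of 8 HF-HI libraries Gria3 lay above every Sham library, and the lowest of all was HF-HI replicate 2, so the groups overlapped, as they did for each of the 4 genes (0.181% of all genes did not overlap). The means were 2405 ± 61.3 and 2528 ± 133, and the log2 difference was 0.07 (SE 0.033, 95% confidence interval 4e-04 to 0.14, limma unadjusted p = 0.0489, adjusted p = 0.4997). The unadjusted p was 0.0943 with log2 size factor as a covariate, 0.0796 with the striatal score and 0.0556 with each library centred on its median. Leaving out any of Sham replicates 2 to 6 or HF-HI replicates 3 to 8 also ended the unadjusted call, with p-values from 0.0586 to 0.106. The call held in the other 4 fits that left out a library, with a lowest limma unadjusted p of 0.00556.

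The Gria3 transcripts taken singly did not pass the threshold. The flip form Gria3-201 had 1261, 1366 and 1720 normalised counts in Sham and 1219, 1486 and 1869 in HF-HI, a log2 ratio of 0.09 (limma unadjusted p = 0.311). The form annotated for decay, Gria3-206, had 304, 548 and 636 in Sham and 282, 528 and 714 in HF-HI (limma unadjusted p = 0.874). Its lowest values, in Sham replicate 6 and HF-HI replicate 4, came from the libraries with the highest Gria3-201 of their groups. The retained-intron form Gria3-208 had 404, 463 and 512 in Sham and 374, 517 and 603 in HF-HI, a log2 ratio of 0.12 (limma unadjusted p = 0.227). For Gria3-208, 4 of 8 HF-HI libraries lay above every Sham library, while HF-HI replicate 1 was the lowest of all, and without that library the unadjusted p was 0.0348 with a VSD difference of 0.06.

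Gria4, which is prominent in cortical interneurons, had 1276, 1376 and 1415 summed normalised counts in Sham and 1295, 1341 and 1468 in HF-HI. The means were 1356 ± 48.7 and 1355 ± 58.7, and the log2 difference was 0.00 (95% confidence interval −0.070 to 0.067, limma unadjusted p = 0.962). The flop form Gria4-201 had 634, 670 and 777 in Sham and 463, 696 and 829.1 in HF-HI (limma unadjusted p = 0.897). The short Gria4-203 had 378, 428 and 485 in Sham and 357, 429 and 487 in HF-HI (limma unadjusted p = 0.951). The flip form Gria4-202 was the scarcest of the 10 and the most variable, at 164, 226 and 309 in Sham and 63.0, 213 and 362 in HF-HI (limma unadjusted p = 0.640). HF-HI replicate 1 had the lowest flip and the highest flop value of Gria4, and HF-HI replicate 5 had the highest flip and the lowest flop value.

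**Figure D3:**
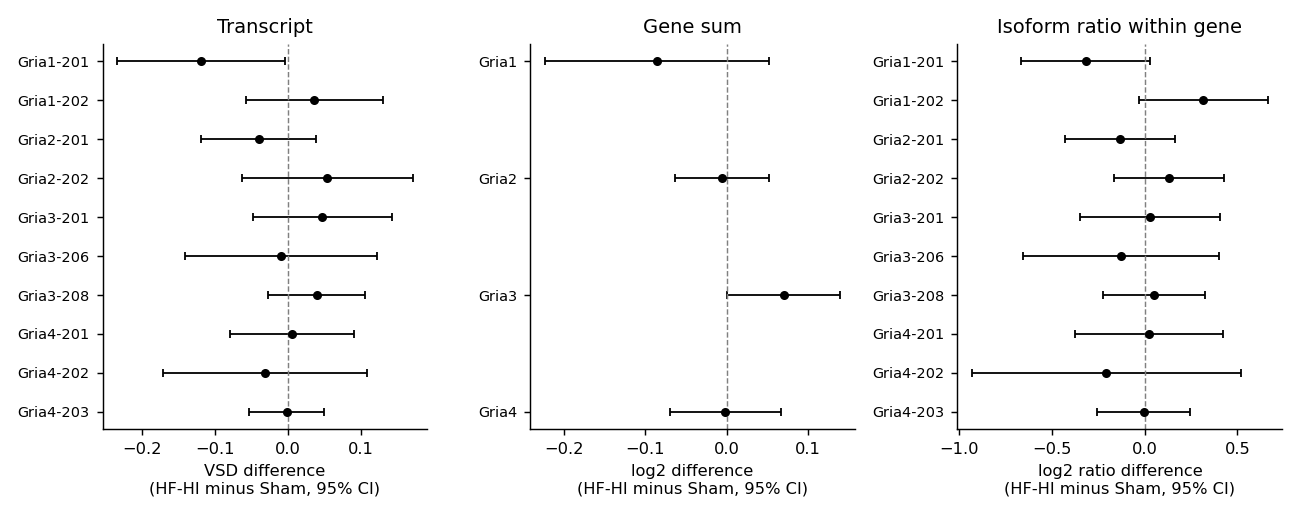
Difference of HF-HI minus Sham with its 95% confidence interval from limma, for transcripts on the VSD scale (left), for the summed counts of each gene on the log2 scale (centre), and for each transcript against the other listed transcripts of its gene as a log2 ratio (right). The interval lies below 0 for Gria1-201 and above 0 for the Gria3 sum, and spans 0 for the others.

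The balance of flip and flop was tested in the 3 genes with both forms listed, from per-kilobase levels. In Gria1, flip was 47.5%, 51.9% and 60.8% of flip plus flop as the lowest, median and highest Sham value, and 41.6%, 46.5% and 60.3% in HF-HI. In 5 of 8 HF-HI libraries the log2 ratio of flip to flop lay below every Sham library, but HF-HI replicate 1 was near the top of the Sham range. The mean flip share was 53.0% ± 4.42 in Sham and 47.6% ± 5.81 in HF-HI. The mean log2 ratio of flip to flop was 0.17 ± 0.26 and −0.14 ± 0.34, a difference of −0.32 (SE 0.15, exact two-sided permutation p = 0.0687 over 6435 splits, unadjusted, 3 genes tested). The exact permutation p was 0.00233 without HF-HI replicate 1 and 0.0453 without Sham replicate 5, and above 0.05 in the other 13 fits that left out a library, up to 0.140.

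In Gria2, the flip share was 50.8%, 60.1% and 67.9% as the lowest, median and highest Sham value, and 57.8%, 63.2% and 66.1% in HF-HI. The HF-HI values all lay within the Sham range. The difference in the log2 ratio was 0.13 (SE 0.13, exact two-sided permutation p = 0.338). In Gria4, where flop predominated, the flip share was 18.8%, 25.4% and 33.0% in Sham and 7.17%, 23.4% and 44.3% in HF-HI. The HF-HI libraries thus spread beyond the Sham range on both sides. The difference in the log2 ratio was −0.21 (SE 0.39, exact two-sided permutation p = 0.652), and without HF-HI replicate 1 it was 0.07. Per kilobase, flip was therefore the larger form in Gria2 and the smaller in Gria4 in every library, and Gria1 had libraries on both sides of equality. For Gria2 this order depends on the division by length, since the long flop form Gria2-201 had more normalised counts than Gria2-202 in every library.

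**Figure D4:**
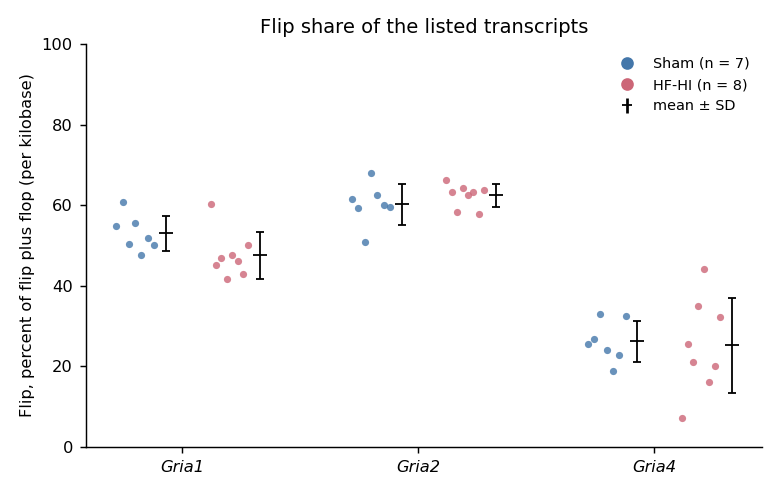
Flip as a percent of flip plus flop, per kilobase, in the 3 genes with both forms listed, with a point for each library, 7 Sham and 8 HF-HI, and the mean with SD in black. Gria1 lay at 47.5% to 60.8% in Sham and 41.6% to 60.3% in HF-HI, above Gria4 in each library and with overlap between the groups.

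Each transcript was also tested against the other listed transcripts of its gene, and 0 of the 10 passed an unadjusted p under 0.05, beside 6.35% of 4140 transcripts from genes with several listed (3.41% higher and 2.95% lower). None of the 4140 passed an adjusted p under 0.1 in limma, against 263 at the unadjusted threshold. The Gria1 forms had the largest change in balance among the 10, −0.32 for Gria1-201 on the log2 scale (SE 0.16, limma unadjusted p = 0.0722, adjusted p = 0.735). Without HF-HI replicate 1 this was −0.42 (limma unadjusted p = 0.00637) and without Sham replicate 5 it was −0.37 (limma unadjusted p = 0.0465). With log2 size factor as a covariate it was −0.16 (limma unadjusted p = 0.425). For Gria1, with a single flip and a single flop form listed, this balance is the log2 ratio of flip to flop given above. For the other 8 transcripts the unadjusted p lay between 0.358 and 0.970.

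The spread between libraries exceeded counting error for each of the 10 transcripts. The coefficient of variation within groups was 6.73% for Gria2-201, the lowest, and 35.3% for Gria4-202, the highest, whereas Poisson counting of the recovered reads alone would give 1.43% and 6.76%. The observed variance was 4.07 to 37.7 times the counting variance. Reads of transcripts that share most of their exons were divided by estimation, and this division is not part of the Poisson value.

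The flip and flop forms of Gria2 and Gria4, and the flip and decay forms of Gria3, varied in opposite directions from library to library. Many other within-gene pairs of the table did so too, as given below. Correlations were computed over the 15 libraries on log2 normalised counts after the mean of each group was subtracted, with permutation p-values (100000 permutations) adjusted over all 4081 within-gene pairs of the table. Gria3-201 and Gria3-206 had a Pearson r of −0.82 (permutation p = 0.00245, adjusted 0.0186) and a Spearman rho of −0.68 (permutation p = 0.00971, adjusted 0.0554). Without Sham replicate 6 and HF-HI replicate 4, the libraries farthest from the median of Gria3-201, r was −0.41, so the relation rested in large part on those libraries. Gria2-201 and Gria2-202 had an r of −0.73 (permutation p = 0.00853, adjusted 0.0461) and a rho of −0.46 (permutation p = 0.106, adjusted 0.273), and r was −0.32 without Sham replicates 3 and 4. This relation rested on those libraries as well. Gria4-201 and Gria4-202 had an r of −0.72 (permutation p = 0.0265, adjusted 0.1005) and a rho of −0.75 (permutation p = 0.00355, adjusted 0.0280), and r was −0.65 without HF-HI replicates 1 and 5.

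The flip and flop forms of Gria1 had an r of only −0.08 (permutation p = 0.809, adjusted 0.894) and a rho of −0.13 (permutation p = 0.651, adjusted 0.806), and r was −0.18 without HF-HI replicates 1 and 2. The other 4 Gria pairs had r between −0.46 and 0.20, with adjusted permutation p-values from 0.241 to 0.998. Of these, Gria3-201 and Gria3-208 had an r of −0.25, which was −0.61 without Sham replicate 6 and HF-HI replicate 4. The other three had an r between −0.42 and 0.24 without the 2 farthest libraries. Over all 4081 within-gene pairs the median r was −0.26, and 69.3% were below 0. An r below −0.5 was found in 30.8% of these pairs, and 26.3% had an adjusted p under 0.1. By Pearson r, the Gria pairs under that threshold were Gria3-201 with Gria3-206 and Gria2-201 with Gria2-202. Negative relations between transcripts of a gene were therefore common in this table, and the opposite variation above is not particular to the Gria genes. The pairs share library depth and the reads of their common exons.

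**Figure D5:**
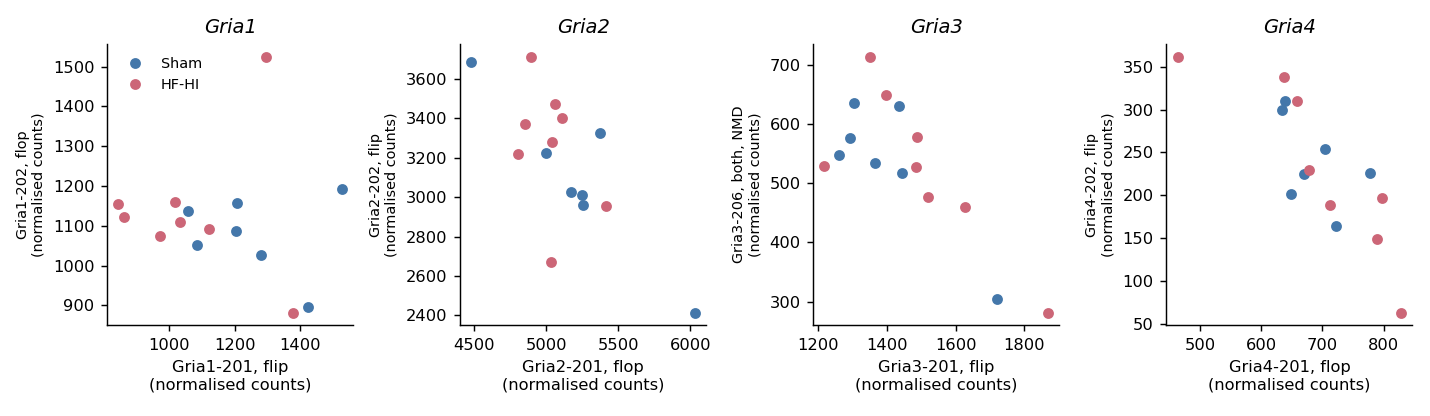
Normalised counts of a pair of listed transcripts of each AMPA receptor subunit gene, with a point for each of 7 Sham and 8 HF-HI libraries, before subtraction of the group means. The points fall from upper left to lower right for Gria2, Gria3 and Gria4 (Pearson r −0.73, −0.82 and −0.72 after subtraction) and not for Gria1 (r −0.08).

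Between subunit genes, the summed log2 counts, also with group means subtracted, ran in opposite directions for Gria1 and Gria3 across the 15 libraries, with a Pearson r of −0.70, which was −0.42 without HF-HI replicate 2. Gria1 and Gria4 had an r of −0.51, Gria3 and Gria4 had 0.44, and Gria1 and Gria2 had 0.35. These values are descriptions over libraries, and all genes of a library share its depth. Among the 7739 other genes, the 3 most like Gria1 were Ncs1, which encodes a neuronal calcium sensor (r 0.91), Parp1, a DNA repair enzyme (0.87), and Wfs1, a protein of the endoplasmic reticulum membrane (0.86), with 0.79, 0.68 and 0.87 without HF-HI replicate 2. Those most like Gria2 were Copb1, a subunit of the coatomer of Golgi vesicles (0.91), and Cog3 and Cog6, subunits of a Golgi tethering complex (0.84 and 0.83). Those most like Gria3 were Gpatch8 (0.90), Pum3 (0.88) and Sept8, a septin (0.87), and those most like Gria4 were Slc35f3 (0.84), the transcription factor Foxo3 (0.83) and Rps6kc1 (0.81).

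AMPA receptors reach the synapse with auxiliary subunits, and 12 of 14 such genes were listed, each with a single transcript. None of the 12 transcripts passed an unadjusted p under 0.05, beside 8.83% of all transcripts, and the median VSD difference was −0.01. At that share a list this short can hold no call, so the absence of calls is not evidence of unchanged levels. The transcripts with the most counts were those of Prrt2 (665 ± 40.3 in Sham, 630 ± 90.1 in HF-HI, limma unadjusted p = 0.333), Cnih2 (518 ± 55.7 and 498 ± 27.5) and Cnih3 (486 ± 62.3 and 482 ± 51.8), the last pair with limma unadjusted p-values of 0.398 and 0.898. Cnih2 and Cnih3 encode cornichon proteins that slow receptor deactivation. Of the 6 genes for receptor assembly in the endoplasmic reticulum, all were listed with 8 transcripts, and 0 passed, beside the same 8.83%. Frrs1l, an assembly factor, had 5027 ± 354 and 5123 ± 224.9 counts in its main transcript. Abhd12-201 had 1588 ± 227 and 1490 ± 248, and Sacm1l had 937 ± 77.7 and 932 ± 76.8. The limma unadjusted p-values were 0.512, 0.403 and 0.894.

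Among scaffold and trafficking partners, 24 of 27 genes were listed with 48 transcripts, and 1 of 48 passed, beside the 8.83% of all transcripts. This was Vps35, a retromer subunit that recycles cargo including AMPA receptors, with 1325 ± 65.1 in Sham and 1234 ± 44.2 in HF-HI. Its log2 ratio was −0.10, all 8 HF-HI libraries were at or under the Sham median, and the limma unadjusted p was 0.0101 with an adjusted p of 0.415. The median VSD difference of the 48 was 0.00. Among extracellular organisers of AMPA receptors, 10 of 12 genes were listed with 15 transcripts. Of these 0 passed, beside the same 8.83%, with a median VSD difference of −0.01. The neuronal pentraxin Nptx1 had 2236 ± 95.4 and 2327 ± 141, the pentraxin receptor transcript Nptxr-203 had 2596 ± 272 and 2665 ± 272, and Olfm1-202, a noelin, had 1955 ± 146 and 2085 ± 283. The limma unadjusted p-values were 0.174, 0.616 and 0.302. For the RNA editing enzymes, 2 of 3 genes were listed with 8 transcripts, and 0 passed, again beside 8.83% of all transcripts. Adarb1 encodes the enzyme that edits Gria2 RNA, and its listed transcript with the most counts, Adarb1-206, had 471 ± 111 and 420 ± 123, while Adarb1-203 had 407 ± 104 and 413 ± 80.8. Adar-202 had 1149 ± 124 and 1145 ± 138. The limma unadjusted p-values were 0.351, 0.848 and 0.948. Editing itself was not measured, since the values are transcript counts.

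Markers were read for the cells that the tissue could hold. All 5 excitatory neuron markers and all 6 inhibitory neuron markers were listed, as cortex would hold. Markers without a listed transcript were Drd2 (striatum), Aif1 (microglia), Olig2 (oligodendrocyte precursor), Pecam1 (endothelium), and Folr1 and Kl (choroid plexus). The counts of called markers stand beside 8.83% of all transcripts called in either direction, 4.94% higher and 3.90% lower. Of 6 excitatory marker transcripts, 1 passed an unadjusted p under 0.05 (Camk2a-203, a kinase of the postsynaptic density, 7779 ± 392 in Sham and 8585 ± 417 in HF-HI, limma unadjusted p = 0.00165, adjusted 0.311), and their summed level was 13860 to 15840 in Sham and 14720 to 16580 in HF-HI. Of 7 inhibitory marker transcripts, 0 passed, with sums of 5481 to 6187 and 5108 to 6126. Of 14 transcripts of striatal markers, 3 passed, all lower in HF-HI (Pde10a-202, Ppp1r1b-201 and Penk), with sums of 7013 to 10670 in Sham and 4993 to 10110 in HF-HI. Other transcripts of the same genes did not pass and went both ways. Log2 ratios were 0.37 for Ppp1r1b-204, 0.35 for Pde10a-208, 0.025 for Pde10a-207, −0.13 for Ppp1r1b-202 and −0.24 for Pde10a-205. The striatal score used as a covariate averaged all 14 transcripts. The microglial marker P2ry12 was lower in HF-HI (234 ± 22.6 and 200 ± 31.8, limma unadjusted p = 0.0323), as 1 of 4 microglial transcripts, with sums of 1485 to 1689 and 1292 to 1672. None of the 9 astrocyte, 15 oligodendrocyte, 3 oligodendrocyte precursor, 4 endothelial and 5 choroid plexus transcripts passed. Depth and 3 striatal, 1 microglial and 1 excitatory marker transcript thus differed between the groups at the unadjusted threshold, as Gria1-201 and the Gria3 sum did, and the calls for microglia and excitatory neurons rest on 1 transcript each. The fits with the depth and the striatal covariate are given above for both, and the part of the microglial and excitatory marker levels in those differences was not tested.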

How the data were processed

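Per the labels and the study's methods, stranded total RNA libraries of cortex were sequenced after ribosomal RNA depletion. The authors aligned reads to mm10 with STAR, estimated counts per transcript with eXpress, and deposited variance-stabilised log2 values from DESeq2 for 10370 transcripts in 15 libraries, 7 Sham and 8 HF-HI. The versions of STAR and eXpress and the annotation release are not given in the sources used here. eXpress divides reads shared by isoforms by estimation, so values of forms that differ by a short exon depend on that division.

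The transformation was inverted from the value of a count of 0 (9.81), and 100.0% of values then came out as whole reads per library within a tolerance of 0.1 reads. This gave size factors, normalised counts and reads. The lowest mean was 107.9 normalised counts, so scarcer transcripts were not analysed here. Poisson values cover counting error only. Of the transcripts, 10241 matched GENCODE M21 (GRCm38, the same assembly as mm10) and 129 did not.

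Transcript values were tested with limma 3.58.1 (R 4.3.3), eBayes with trend, group only, two-sided, HF-HI minus Sham, over all transcripts with Benjamini-Hochberg adjustment at 0.1. Gene sums used log2 of the summed normalised counts with a pseudocount of 1, and isoform shares used log2 of a transcript over the other listed transcripts of its gene, per kilobase. The flip to flop ratio was tested by exact permutation over libraries. The transcript test was run on the deposited log2 scale. The gene sum, isoform share and flip to flop tests used the normalised counts recovered by inverting that scale. Voom on the recovered reads was an alternative for transcripts and genes. No negative binomial model was fitted. The scripts were tested on simulated data. With a log2 change of 0.5 in 200 transcripts, 41.5% of these were called at an adjusted p under 0.1. Of the genes that held them 22.9% were called, and of their isoform shares 18.5%, so changes of this size could be missed. Unchanged features were called too: 6 beside 83 changed transcripts, 4 beside 44 genes and 9 beside 37 isoform shares. With a change of 1, 46 unchanged isoform shares were called beside 162 changed. Changes between 0 and 0.5 were not simulated, and the Gria transcript and gene log2 differences above lay in that range.

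All listed Gria transcripts were named. Of the partner lists, members at an unadjusted p under 0.05 were named, or otherwise the 3 with the most counts. The 3 genes most correlated with each Gria gene were named. Members and lists were chosen with earlier results of these data known. Alternatives changed the eBayes prior, scaling, low-value filter (mean of at least 300 normalised counts), pseudocount (10), length (less 200 bases), scale (voom on recovered reads), covariates, replicate block and each library in turn. Python 3.11.15, numpy 2.4.6, scipy 1.17.1 and pandas 2.3.3 were used.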

Additional observations from a re-analysis of the deposited data

Results flagged for a closer look

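Of 34 groups of Gria values examined, 6 had a highest or lowest library that stood apart from the others by Dixon's criterion. For independent, normally distributed values, chance alone meets it in about 1 of 20 groups. These groups share libraries and reads, and a gene sum contains its transcripts, so the count cannot be set directly against that rate. Gria1-202, the flop form, had 1525 normalised counts in HF-HI replicate 2, against 1159 in the next HF-HI library. The sum of Gria1 was 2819 in the same library, against 2260 in the next. Among Sham libraries, the sum of Gria1 was 2719 in replicate 4, against 2365 in the next. In Sham replicate 6, Gria3-201 was the highest of its group at 1720, against 1444 in the next, and Gria3-206 was the lowest at 304, against 518 in the next. The log2 ratio of flip to flop of Gria1 was 0.60 in HF-HI replicate 1, against 0.0040 in the next HF-HI library.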

How the results depend on the processing

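The call of Gria1-201 ended with log2 size factor as a covariate (a VSD difference of −0.08) and with the striatal covariate (−0.11), which left 0 Gria transcripts at an unadjusted p under 0.05. The call of the Gria3 sum ended, leaving 0 Gria genes, with the replicate block (0.06), the depth covariate (0.07), the striatal covariate (0.07), centring on the median (0.07) and eBayes without a trend. The replicate numbers did not pair the libraries: deviations of libraries with the same number correlated at −0.14 to 0.091, and 1 of 7 Sham libraries correlated best with its own number. The replicate block ended no other Gria call. Differences close to 0 changed sign. With the depth covariate, the VSD difference was 0 to 4 decimals for Gria1-202, 0.078 for Gria3-206, −0.013 for Gria4-201 and 0.01 for Gria4-203, the log2 difference of the Gria2 sum was 0.014, and the isoform differences were −0.041 (Gria3-201), 0.19 (Gria3-206), −0.088 (Gria3-208), −0.028 (Gria4-201) and 0.091 (Gria4-203). With the striatal covariate, the VSD differences of Gria3-206 and Gria4-201 were 0.0076 and −0.0055, and the isoform differences of Gria3-201 and Gria4-201 were −0.017 and −0.0059. With voom on recovered reads, Gria3-206, Gria4-201 and Gria4-203 were at 0.033, −0.015 and 0.0034. With the replicate block, Gria4-203 was at 3e-04 in VSD and 0.011 as an isoform difference. With only transcripts of at least 300 normalised counts on average, the Gria4 sum was at 0.0065. Over the whole table, counts at an unadjusted p under 0.05 were 533 transcripts and 449 genes with the depth covariate, and 525 transcripts, 466 genes and 96 isoform shares under that filter, which tests fewer features. At an adjusted p under 0.1 there were 3 genes with median centring and 1 with voom. With lengths less 200 bases, the Sham level of Gria3 was 524.3 and that of Gria4 was 378.9 per kilobase, and the order Gria2, Gria3, Gria1, Gria4 held in 12 of 15 libraries.

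With each library left out in turn, the number of Gria calls ranged from 0 to 2 for transcripts, from 0 to 2 for genes and from 0 to 2 for isoform shares. Over the whole table, adjusted calls ranged from 0 to 1 for transcripts, from 0 to 12 for genes and from 0 to 2 for isoform shares, with 12 genes without Sham replicate 5, 11 without Sham replicate 4 and 10 without HF-HI replicate 2. The range was −0.15 to −0.093 for Gria1-201, −0.052 to 0.029 for Gria3-206, −0.011 to 0.036 for Gria4-201, −0.060 to 0.014 for Gria4-202 −0.012 to 0.010 for Gria4-203, 0.0045 to 0.060 for Gria1-202 and 0.016 to 0.084 for Gria2-202 in VSD. For gene sums it was −0.14 to −0.048 for Gria1, −0.013 to 0.0092 for Gria2, 0.052 to 0.090 for Gria3 and −0.018 to 0.0087 for Gria4. For isoform differences it was −0.037 to 0.15 (Gria3-201), −0.28 to 0.038 (Gria3-206), −0.049 to 0.15 (Gria4-201), −0.33 to 0.053 (Gria4-202) and −0.055 to 0.036 (Gria4-203). For the log2 ratio of flip to flop it was −0.42 to −0.24 in Gria1, 0.038 to 0.21 in Gria2 and −0.40 to 0.073 in Gria4, the last positive only without HF-HI replicate 1. The causes were not tested.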
